A study of Drosophila melanogaster with 8 samples.

Results

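Est-6 encodes esterase 6, a secreted carboxylesterase of the beta-esterase class. The gene was chosen by its difference between the genotypes compared here, and it is 1 of 13982 genes in the authors' table and 1 of the 9986 genes with enough reads to be tested. Its row was taken by gene name and read library by library. Est-P, the neighbouring duplicate of Est-6, was not analysed here.

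Esterase 6 belongs to the alpha/beta-hydrolase fold, whose catalytic members cut carboxyl esters with a serine at the active site. In males of Drosophila melanogaster the enzyme is abundant in the ejaculatory duct and passes to the female with the seminal fluid at mating. It is also found in the haemolymph and in the antenna, where it breaks down ester odorants. The same fold holds the alpha-esterases, juvenile hormone esterase, acetylcholinesterase and adhesion proteins that have lost catalysis, such as neurotactin and the neuroligins. Est-6 is also known for its allozymes, enzyme forms of different mobility that are common in wild populations.

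Est-6 was measured in 4 control and 4 ND-75KD RNA libraries, each made from 20 heads of flies 2 days old (10 male and 10 female). Control flies carried nSybGal4 over the w1118 background, and ND-75KD flies carried nSybGal4 with an ND-75 RNAi transgene, which targets a core subunit of mitochondrial complex I. All 8 libraries therefore share the pan-neuronal driver, while a head library also holds glia, fat body, muscle and haemocytes. Whether the antennae stayed on the heads is not stated in the sources used here. The study's text names Tub-Gal80ts beside nSyb-Gal4, which the labels do not, and reports that the RNAi line is leaky without a driver. The control flies lack that line. In the study's stock list the driver and the RNAi transgene (HMS00853, at attP2) both sit on chromosome 3, which also carries Est-6. The genotypes thus differ in the source of 1 of the homologues of chromosome 3, and a different Est-6 allele on that chromosome cannot be told apart from a response to the knockdown. Whether different crosses supplied the pools of heads is not stated in the labels, and the p-values below rest on the variation among pools alone.

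Libraries held 17448199 to 24680283 counts. ND-75 itself, the check of the labels, was at 626 ± 64.9 CPM (counts relative to the library total after TMM scaling) in controls (SD, n = 4) and 306 ± 16.0 CPM in ND-75KD heads (SD, n = 4), with a log2 fold change of −1.03 (SE 0.11, edgeR adjusted p = 1.48e-04). Over all tested genes 18.9% were called lower and 14.3% higher at an adjusted p under 0.05 from edgeR's quasi-likelihood test, and 36.2% had groups that did not overlap. The median log2 fold change of all tested genes was −0.01. Control replicate 2 stood apart, since 23.9% of its counts came from mt:lrRNA against 4.58% to 9.001% elsewhere. Without that library the log2 fold change of Est-6 was −2.58, against −2.63 with it.

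Est-6 (FBgn0000592) lies on the plus strand of chromosome arm 3L from 12188818 to 12190705 in the coordinates of the authors' table. A later Ensembl annotation, in which the gene has the same span, gives it 2 transcripts that share the first exon (12188818 to 12190245) and an intron of 51 bases. They end at 12190580 and 12190705, so their 3′ untranslated regions are 36 and 161 bases long, and both use the start codon at 12188859. The joined exon length is 1837 bases. Counts per gene do not separate the 2 transcripts. Est-6 shares the last 10 bases of its span with thoc6, a gene on the other strand.

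Control replicates 1 to 4 held 8298, 4842, 6424 and 6684 Est-6 counts. ND-75KD replicates 1 to 4 held 1215, 976, 1024 and 1370 counts. At this depth counting error was 1.10% to 1.44% of the value in control libraries and 2.70% to 3.201% in ND-75KD libraries, so it was small beside the spread between libraries. The low count of Control replicate 2 went with its large share of mt:lrRNA, and after scaling that library was the highest of the controls.

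In scaled units Control replicates 1 to 4 were at 339.7, 342.1, 300.5 and 270.3 CPM. ND-75KD replicates 1 to 4 were at 60.3, 48.8, 42.7 and 50.6 CPM. The lowest control library thus lay far above the highest ND-75KD library, and the groups did not overlap. The means were 313 ± 34.3 CPM in controls and 50.6 ± 7.29 CPM in ND-75KD heads (SD, n = 4 each). This is a log2 fold change of −2.63 (SE 0.13), a level 6.19-fold lower, or 16.2% of control. No p is given for it, since this difference selected the gene. Because heads are bulk samples, fewer cells that express Est-6 and less Est-6 RNA per cell cannot be told apart.

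**Figure D1:**
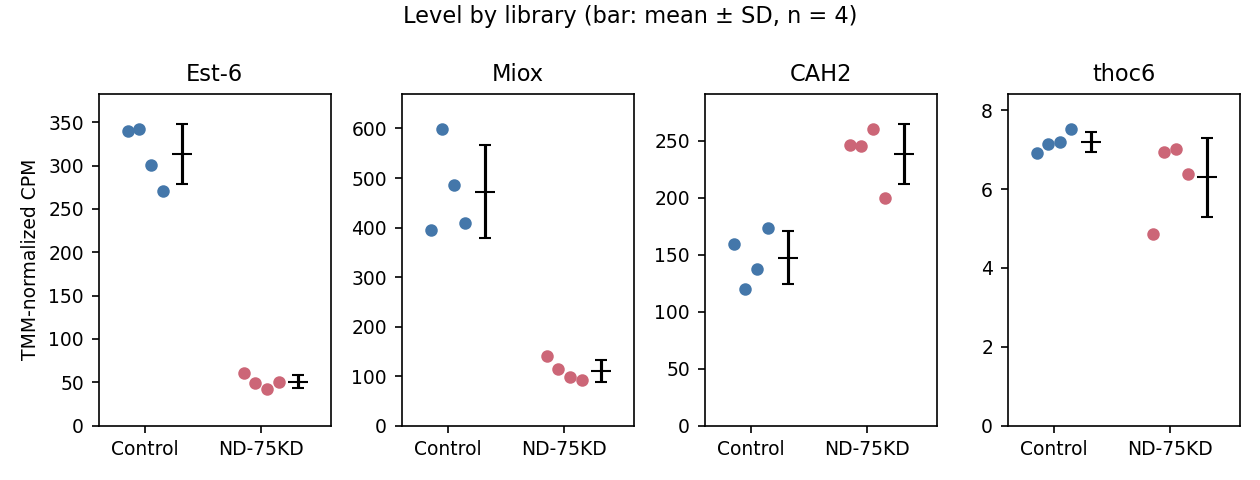
TMM-normalized CPM of Est-6 and of the neighbouring genes Miox, CAH2 and thoc6 in each library (points, 4 Control and 4 ND-75KD; bars, mean ± SD; each vertical axis starts at 0). Est-6 lay at 270.3 to 342.1 CPM in control libraries and 42.7 to 60.3 CPM in ND-75KD libraries, Miox was lower and CAH2 higher in ND-75KD heads, and the groups overlapped for thoc6.

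Ranked by size of decrease among the 6901 genes that averaged 10 CPM or more, Est-6 stood at place 14. In the deposited FPKM, which are per length, Est-6 was at 176 ± 19.6 in controls and 29.0 ± 4.11 in ND-75KD heads (SD, n = 4 each). It ranked 418, 535, 521 and 524 among all genes in Control replicates 1 to 4, and 1939, 2325, 2584 and 2197 in ND-75KD replicates 1 to 4. Every ND-75KD library thus placed Est-6 far lower among all genes than any control library did.

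The spread within each genotype can be set against genes of like level, here those within a factor of 2 of the Est-6 mean. The coefficient of variation of Est-6 CPM was 11.0% in controls, where the median of 904 such genes was 15.02% and 29.1% of them varied less. In ND-75KD heads it was 14.4%, where the median of 3036 such genes was 5.82% and 91.6% of them varied less. ND-75KD replicate 1 was the highest of its group for Est-6, by 0.26 on the log2 scale above the genotype mean, and ND-75KD replicate 3 the lowest, at −0.23. Without ND-75KD replicate 1 the log2 fold change was −2.72. Of the 16 alternative settings tried, none moved it outside −2.72 to −2.53.

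The genes next to Est-6 were described by position. Within 20 kb of Est-6 the table lists 9 genes, of which 8 were tested. Miox and CAH2, both upstream, moved in opposite directions, Tsen54 was called higher at a low level, and the other 5 did not pass the test, although CG11529, Ak1 and app did under 1 or 2 of the alternative settings each.

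Miox (FBgn0036262, listed as CG6910), which encodes myo-inositol oxygenase, the enzyme that converts inositol to glucuronate, ends 957 bases before Est-6 begins and lies on the same strand. It was at 395.5, 598.8, 486.3 and 409.6 CPM in Control replicates 1 to 4. It was at 141.5, 113.9, 97.4 and 92.3 CPM in ND-75KD replicates 1 to 4. As for Est-6, every ND-75KD library lay below every control library. The means of 473 ± 93.2 and 111 ± 22.1 CPM (SD, n = 4 each) gave a log2 fold change of −2.09 (SE 0.18, edgeR adjusted p = 3.87e-05), a level 4.25-fold lower. Miox stood at place 32 in the ranking in which Est-6 stood at place 14.

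Est-6 and Miox did not fall by the same amount in every library. There were 0.859, 0.571, 0.618 and 0.660 Est-6 counts for each Miox count in Control replicates 1 to 4. In ND-75KD replicates 1 to 4 the ratios were 0.426, 0.429, 0.439 and 0.548. The highest ND-75KD ratio lay just below the lowest control ratio, so the groups did not overlap by a narrow margin, and this ratio was not tested. Control replicate 1 had the highest ratio, with deviations from the genotype mean of 0.12 for Est-6 and −0.24 for Miox on the log2 scale. Across the 8 libraries the log2 levels of the genes had Pearson's r = 0.98, which the difference between genotypes carries, and the deviations from the genotype means had r = 0.61. These 8 points share their library and scaling, and both coefficients are descriptions. Among 6900 genes that averaged 10 CPM or more, Miox took place 44 by the first coefficient and place 548 by the second.

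CAH2, a carbonic anhydrase gene that lies beyond Miox, was at 159.1, 119.8, 137.3 and 172.9 CPM in Control replicates 1 to 4. It was at 246.4, 245.3, 260.0 and 199.8 CPM in ND-75KD replicates 1 to 4. All ND-75KD libraries lay above all control libraries. CAH2 rose by 0.69 on the log2 scale (SE 0.13, edgeR adjusted p = 0.00354), from 147 ± 23.5 to 238 ± 26.2 CPM (SD, n = 4 each).

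thoc6, whose product belongs to the THO complex of messenger RNA export, ends against Est-6 on the minus strand. It held 169, 101, 154 and 186 counts in Control replicates 1 to 4 and 98, 139, 168 and 173 counts in ND-75KD replicates 1 to 4. Its log2 fold change was −0.19 (SE 0.14, edgeR adjusted p = 0.327), and the groups overlapped. Control libraries held 35.9 to 49.1 Est-6 counts for each thoc6 count, and ND-75KD libraries 6.10 to 12.4. The strand setting used for counting is not given in the sources used here, and reads in the 10 shared bases cannot be assigned to either gene. In the annotation Est-P starts 27 bases after Est-6 ends (12190733 to 12192528, plus strand) and lies inside the span of thoc6. How reads that match both Est-6 and Est-P were treated is not given in the sources used here.

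The other genes within 20 kb changed less or were little expressed. Tsen54, a subunit gene of the tRNA splicing endonuclease, was at 0.833 ± 0.230 CPM in controls and 1.51 ± 0.402 CPM in ND-75KD heads (SD, n = 4 each), and its log2 fold change was 0.89 (edgeR adjusted p = 0.0366) with groups that overlapped. Its call was lost without Control replicate 3 or 4 or ND-75KD replicate 1, 3 or 4, and with a replicate block, at log2 fold changes of 0.77 to 0.96. CG11529 had a log2 fold change of −0.90 (edgeR adjusted p = 0.0546), and it was called lower by limma voom (−0.88, adjusted p = 0.0306) and by edgeR without Control replicate 1 (−1.11, adjusted p = 0.00686). Rh7, a rhodopsin gene, Ak1, which encodes an adenylate kinase, and app, a palmitoyltransferase gene of planar polarity, had log2 fold changes of −0.09, 0.28 and −0.10 with adjusted p of 0.630, 0.357 and 0.613 from edgeR. Ak1 was called higher without Control replicate 2 (0.55, edgeR adjusted p = 0.0250) and with the trend on gene length removed (0.49, adjusted p = 0.0384), and app was called lower with that trend removed (−0.33, adjusted p = 0.0129). lncRNA:CR45746 had too few reads to be tested.

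**Figure D2:**
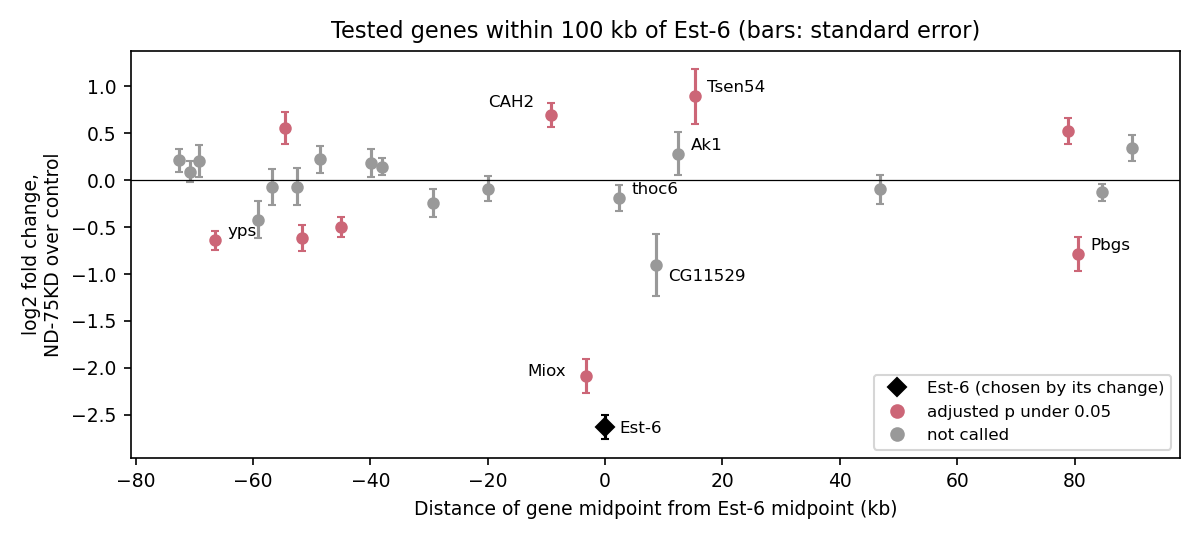
Log2 fold change (ND-75KD over control, bars: SE) of Est-6 and the 26 tested genes within 100 kb, against the distance in kb between gene midpoints. Est-6 (diamond, −2.63) and Miox (−2.09) stood well below the other genes of the window, whose log2 fold changes ran from −0.90 for CG11529 to 0.89 for Tsen54; red points were called at an adjusted p under 0.05.

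Within 100 kb there were 31 genes, of which 26 were tested. Of these, 4 (15.4%) were called higher and 5 (19.2%) lower, near the 14.3% and 18.9% over all tested genes, with a median log2 fold change of −0.07. Besides Miox the lower genes were yps, a Y-box RNA-binding protein gene (−0.64, edgeR adjusted p = 8.56e-04), ND-SGDH, an accessory subunit of complex I (−0.62, adjusted p = 0.00718), eIF3l, a translation initiation factor subunit (−0.50, adjusted p = 0.00803), and Pbgs, which encodes porphobilinogen synthase of haem synthesis (−0.79, adjusted p = 0.00806). Besides CAH2 and Tsen54 the higher genes were CG5645 (0.55, adjusted p = 0.0280) and CG32100 (0.52, adjusted p = 0.0157). ND-SGDH overlaps Atg12, Pbgs overlaps CG32100 and CG5645 overlaps DEF8. With Control replicate 3 or 4 or ND-75KD replicate 1 or 4 left out, or with a replicate block, 2 genes were called higher, and CG5645 lost its call in each of these settings. Within 1 Mb, 28 of 166 tested genes were higher and 28 were lower (16.9% each), with a median of 0.02.

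The other genes of the carboxylesterase family were taken from a list of 33 names that includes Est-6 and Est-P. Besides Est-6, 28 had a row and 24 were tested. Of these 24, 1 (4.17%) was higher and 7 (29.2%) were lower in ND-75KD heads, beside 14.3% and 18.9% of all tested genes, with a median log2 fold change of −0.05. The lower genes numbered 3 without Control replicate 3 or ND-75KD replicate 3, and 4 without ND-75KD replicate 2 or 4. Leaving out Control replicate 1 gave 2 higher genes, and leaving out Control replicate 4 gave 3. alpha-Est3, alpha-Est6, CG9287 and CG9289 had too few reads to be tested, and CG3841, CG4382 and CG6414 were not analysed here.

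Among the alpha-esterases, enzymes that act on dietary and foreign esters, 4 of 8 tested genes were lower, beside 18.9% of all tested genes, and 0 were higher by edgeR, beside 14.3% (0 at an unadjusted p under 0.05, and 0 by DESeq2 or limma voom), with a median log2 fold change of −0.33. alpha-Est7, whose blowfly counterpart is known for resistance to organophosphates, was at 384.4, 397.5, 396.4 and 324.6 CPM in Control replicates 1 to 4. It was at 220.2, 187.5, 164.8 and 165.7 CPM in ND-75KD replicates 1 to 4. The groups did not overlap, and alpha-Est7 fell by 1.03 on the log2 scale (SE 0.12, edgeR adjusted p = 2.80e-04). alpha-Est5 fell by 1.17 on the log2 scale (SE 0.17, edgeR adjusted p = 7.36e-04), from 17.2 to 7.66 CPM. alpha-Est1 and alpha-Est8 fell by 0.58 and 0.38 on the log2 scale (edgeR adjusted p = 0.0286 and 0.0252), and the groups overlapped for alpha-Est1. The call of alpha-Est1 was lost without Control replicate 3 or ND-75KD replicate 2, 3 or 4, where its log2 fold change was −0.58 to −0.52. The call of alpha-Est8 was lost without those libraries, without Control replicate 1 and with a replicate block, at −0.41 to −0.28.

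Of the remaining catalytic members, CG4757, a predicted carboxylesterase gene, rose by 1.35 on the log2 scale (SE 0.34, edgeR adjusted p = 0.0122). It was at 8.06, 6.64, 12.9 and 12.2 CPM in Control replicates 1 to 4 and at 31.7, 39.8, 13.2 and 17.8 CPM in ND-75KD replicates 1 to 4. The ND-75KD libraries differed widely among themselves, and the lowest of them lay just above the highest control library. clt (cricklet), an esterase gene known for its part in juvenile hormone responses of the fat body, fell by 0.45 on the log2 scale (edgeR adjusted p = 0.0149), and its call was lost without Control replicate 3 or ND-75KD replicate 3. Jhe, the juvenile hormone esterase gene, and Jhedup, its duplicate, had log2 fold changes of 0.17 and −0.10 (edgeR adjusted p = 0.373 and 0.809). Est-Q was at 28.6 FPKM in controls and 27.8 FPKM in ND-75KD heads (log2 fold change −0.07, edgeR adjusted p = 0.833).

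Of the 8 members that serve at synapses and in adhesion, 2 were lower, beside 18.9% of all tested genes, and 0 were higher by edgeR, beside 14.3% (1 at an unadjusted p under 0.05, 0 by DESeq2 and 2 by limma voom). Ace, which encodes acetylcholinesterase, was at 27.0 FPKM in controls and 30.2 FPKM in ND-75KD heads (log2 fold change 0.14, edgeR adjusted p = 0.422). Glt, which encodes the basement membrane protein glutactin and overlaps CG9287, fell by 0.63 on the log2 scale (SE 0.17, edgeR adjusted p = 0.0188), and Nlg1, a neuroligin gene, by 0.40 (edgeR adjusted p = 0.0175). The call of Glt was lost when Control replicate 1 or ND-75KD replicate 3 or 4 was left out. That of Nlg1 was lost when Control replicate 3 or ND-75KD replicate 1 or 2 was left out, and with a replicate block.

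**Figure D3:**
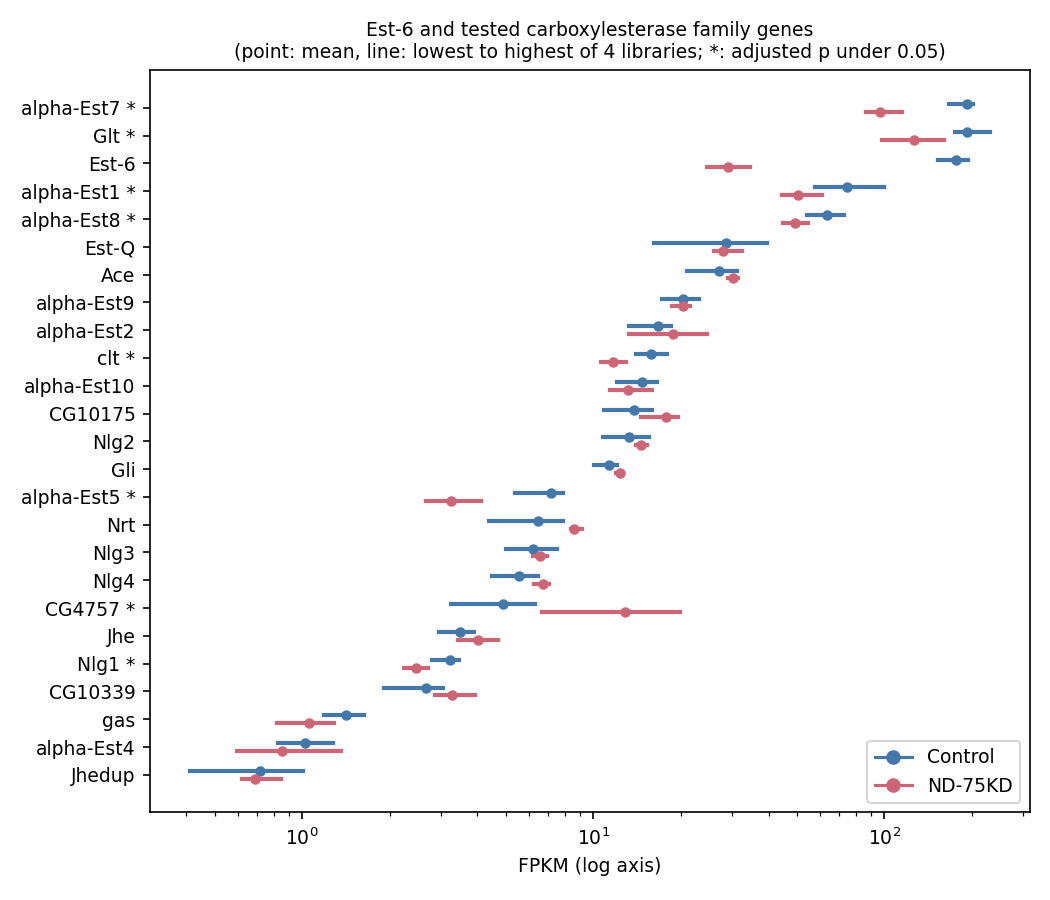
Deposited FPKM (log axis) of Est-6 and the 24 other tested genes of the carboxylesterase family in control and ND-75KD heads; points are means and lines run from the lowest to the highest of 4 libraries, and asterisks mark genes called at an adjusted p under 0.05. Est-6 went from 176 to 29.0 FPKM, from beside alpha-Est7 and Glt to beside Est-Q and Ace.

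On the FPKM scale, in which genes can be compared per length, the highest family members of control heads were alpha-Est7 (193 FPKM), Glt (192 FPKM) and Est-6 (176 FPKM). Est-6 was below alpha-Est7 in every control library and above Glt in 1 of 4, and the ranges of the 3 genes over the control libraries overlapped. In ND-75KD heads alpha-Est7 was at 96.3 FPKM and Glt at 126 FPKM, and Est-6, at 29.0 FPKM, lay with Ace, which it exceeded in 1 library, and Est-Q, which it exceeded in 3. Est-6 took place 5, 6, 7 and 6 in the family in ND-75KD replicates 1 to 4, against places 3, 2, 3 and 3 in Control replicates 1 to 4. Of the summed FPKM of the family, Est-6 made up 18.6% to 20.6% in control libraries and 4.65% to 5.78% in ND-75KD libraries.

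Marker genes of the organs in which Est-6 is known were also read in the same libraries. Of 18 names listed for the antenna and olfactory organs, 17 had a row and 9 were tested. Of these 9, 3 were lower, beside 18.9% of all tested genes, and 0 were higher by edgeR, beside 14.3% (0 at an unadjusted p under 0.05, and 0 by DESeq2 or limma voom). The summed level of the 17 genes was 409 to 518 CPM in controls and 216 to 286 CPM in ND-75KD libraries. Most of that sum was Obp19d, an odorant-binding protein gene, at 422 CPM in controls and 214 CPM in ND-75KD heads (log2 fold change −0.98). The other lower genes were Obp28a (−1.09) and the co-receptor gene Ir25a (−0.62). Orco, the odorant receptor co-receptor gene, was at 2.46 and 1.82 CPM (log2 fold change −0.46, edgeR adjusted p = 0.227). Ir8a had no counts in any library except ND-75KD replicate 4, which had 3. Of the other tested genes, lush and Or43b had log2 fold changes of 0.72 and 0.35 (edgeR adjusted p = 0.2 and 0.221). Snmp1, Ir76b and Obp83a had −0.07, −0.02 and −0.23 (edgeR adjusted p = 0.681, 0.95 and 0.703). Many listed genes were close to absent, such as Obp83a, Obp83b and a10 at 0.455, 0.344 and 0.375 CPM in controls. How much antennal tissue the libraries held is thus not known, and the part of the olfactory organs in the Est-6 difference was not tested.

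Of 16 names listed for the male reproductive tract, 10 had a row, and the others do not enter the sum. These 10 genes were close to absent, since their summed level was 1.09 to 2.90 CPM in controls and 0.745 to 1.29 CPM in ND-75KD libraries. EbpII, a gene of the ejaculatory bulb, had 2, 8, 4 and 1 counts in Control replicates 1 to 4 and none in the ND-75KD libraries, whereas Acp26Ab, an accessory gland gene, had none in the controls and 2 counts in ND-75KD replicate 1. The single tested gene, Dup99B, which encodes an ejaculatory duct peptide, had a log2 fold change of −1.03 (edgeR adjusted p = 0.0497, not called by DESeq2) at 0.962 CPM in controls. In the same control libraries Est-6 was at 313 CPM.

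Markers of the fat body, 7 genes that include the oenocyte gene Cyp4g1, summed to 4723 to 7610 CPM in controls and 2131 to 3169 CPM in ND-75KD libraries, with 1 higher, Fbp1, and 4 lower. The counts of this and the following lists stand beside 14.3% of all tested genes called higher and 18.9% called lower. apolpp, the lipophorin precursor gene, fell by 1.32 on the log2 scale and FASN1, a fatty acid synthase gene, by 1.45. Together they made up most of the fat body sum, at 3405 and 2240.5 CPM in controls. Fbp1 rose by 1.88 (edgeR adjusted p = 0.0327), from 19.7 to 71.7 CPM. The other lower genes were to (log2 fold change −0.59) and Cyp4g1 (−2.03, SE 0.64, edgeR adjusted p = 0.0339). Cyp4g1 was at a low level (mean 0.984 CPM in controls) and its groups overlapped. Its range was 0.281 to 2.06 CPM in controls and 0.0993 to 0.406 CPM in ND-75KD libraries. Lsp2 and fat-spondin had log2 fold changes of −0.42 and −0.39 and were not called (edgeR adjusted p = 0.136 and 0.108). Haemocyte markers summed to 343 to 417 CPM in controls and 269 to 283 CPM in ND-75KD libraries, with 4 of 5 lower. These were Hml (−1.78), NimC1 (−1.06), eater (−0.55) and Pxn (−0.46). crq, the highest haemocyte marker at 168 CPM in controls, had a log2 fold change of −0.06 (edgeR adjusted p = 0.609). The yolk protein genes Yp1, Yp2 and Yp3, which are female-biased, had log2 fold changes of −2.27, −2.04 and −2.97, and fit, another female-biased gene of the head fat body, −1.88, all called lower. The male-specific roX1 and roX2 had log2 fold changes of −0.19 and −0.31 (edgeR adjusted p = 0.219 and 0.175). Markers of neurons, in contrast, were higher in 6 of 9 cases, and their sum was 2218 to 2963 CPM in controls and 3043 to 3255 CPM in ND-75KD libraries. Glia, photoreceptor and muscle lists had 2 of 6, 4 of 8 and 2 of 5 genes lower. The part of these cell types in the Est-6 difference was not tested.

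**Figure D4:**
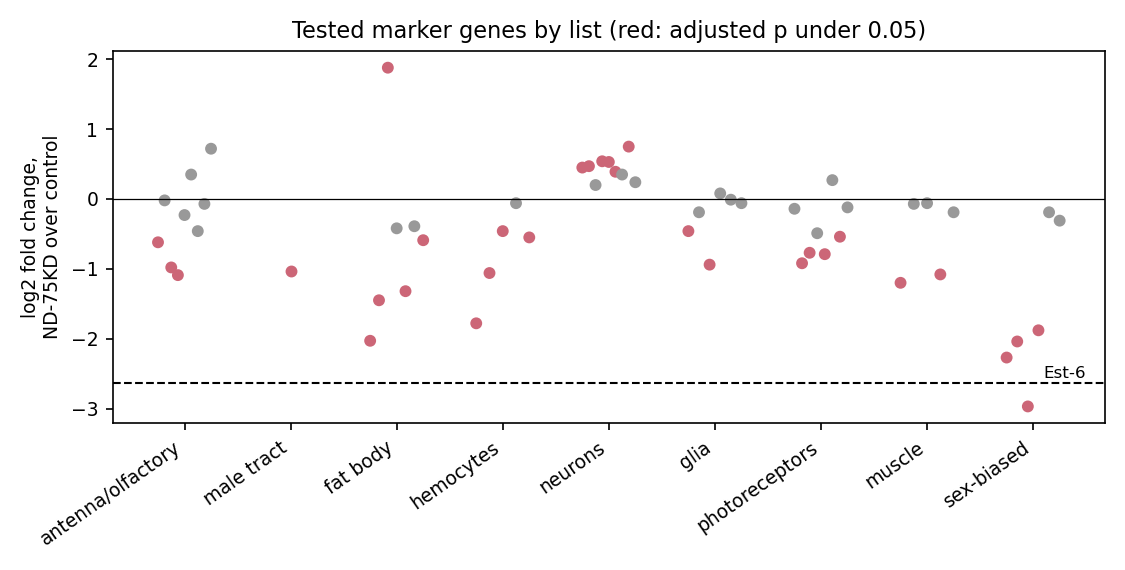
Log2 fold change (ND-75KD over control) of each tested marker gene, by list, with genes called at an adjusted p under 0.05 in red and the others in grey; the dashed line marks Est-6 at −2.63. Yp3 (−2.97) was the 1 tested marker gene below the line, and the neuron list lay above 0.

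The genes whose levels followed Est-6 most closely were sought among genes that averaged 10 CPM or more, by Pearson's r of log2 CPM over the 8 libraries. The first 5 were RpS19a (0.998), CG13360 (0.996), RpLP0 (0.995), Rack1 (0.995) and RpS20 (0.993). Their log2 fold changes were −0.89, −2.51, −1.16, −0.98 and −0.96, so all were lower in ND-75KD heads, CG13360 by nearly as much as Est-6. CG13360, which lies on chromosome X, was at 50.4 to 73.0 CPM in controls and 8.01 to 13.0 CPM in ND-75KD libraries. Over 8 libraries in 2 groups such coefficients mostly reflect the difference between the groups. By deviations from the genotype means the first 5 were CG2100 (0.950), amrt (0.950), CG6051 (0.948), CG5973 (0.939) and CG13360 (0.936). CG6051 was higher in ND-75KD heads, with a log2 fold change of 0.43, and the others of this group had values from −2.51 to −0.24. CG13360 was the gene that both rankings shared among their first 5. Both rankings use the same libraries and deviations, and the highest of 6900 coefficients over 8 points can be high by chance. The shared gene is thus a description, and a link to Est-6 was not tested.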

How the data were processed

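The deposited counts are featureCounts totals per gene, which the authors obtained from paired-end reads trimmed by fastp and aligned by HISAT2 to the genome of Ensembl 102. Tool versions and the strand setting are not given in the sources used here. The deposited FPKM values were scaled by the authors for gene length and for an effective depth equal to 63.5% to 109% of the summed counts. The authors' normalized counts, log2 fold changes and p-values, made with DESeq2, were not used.

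Counts were analysed in R 4.3.3 with edgeR 4.0.16 (filterByExpr, minimum count 10, TMM, quasi-likelihood test, Benjamini-Hochberg adjustment over 9986 genes, called at an adjusted p under 0.05), after a test on simulated data. Levels are TMM-normalized CPM, and log2 fold changes are ND-75KD over control. The biological coefficient of variation was 0.171. Alternatives were DESeq2 1.42.0, scaling by DESeq2 size factors or by the upper quartile, omitting the filter, at least 10 reads in every library, limma 3.58.1 voom with quality weights, removal of the gene length trend (loess, span 0.5), a replicate block and each library left out in turn. For likeness the alternative was log2 of FPKM with a pseudocount of 1, and 4 of the first 5 genes were shared in each ranking.

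Named genes were Est-6, called family members and the family's 6 highest by FPKM, genes within 20 kb, called genes within 100 kb, ND-75, markers and the 5 genes most like Est-6. Gene, lists and tests were chosen with earlier results of these data known. Of the table's gene IDs 13913 were in a later Ensembl annotation, 13869 with the same coordinates.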

Additional observations from a re-analysis of the deposited data

Results flagged for a closer look

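In 7 of 104 groups of 4 libraries examined, over 52 genes, the highest or lowest library lay apart from the others by Dixon's criterion, where chance gives about 1 in 20. The groups of Est-6 and Miox were not among them. ND-75 was at 281.9 CPM in ND-75KD replicate 3, against 312.1 to 315.6 CPM in the other ND-75KD libraries. In the carboxylesterase family, alpha-Est5 was at 12.9 CPM in Control replicate 4 (18.2 to 19.1 CPM in the other controls), Jhedup at 1.40 CPM in ND-75KD replicate 4 (1.04 to 1.10 CPM in the others) and Est-Q at 56.4 CPM in ND-75KD replicate 1 (44.8 to 45.9 CPM in the others). Near Est-6, CG11560 was at 9.14 CPM in Control replicate 4 (5.93 to 6.26 CPM in the other controls), ND-SGDH at 306.7 CPM in Control replicate 2 (203.6 to 214.6 CPM) and CG32099 at 5.46 CPM in Control replicate 4 (6.67 to 6.88 CPM).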

How the results depend on the processing

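The log2 fold change of Est-6 stayed negative in all 16 alternatives, from −2.72 to −2.55 with 1 library left out and from −2.63 to −2.53 in the others, the replicate block giving −2.63. With 1 library left out, family genes called higher ranged from 1 to 3 (main 1) and lower from 3 to 7 (main 7), and genes within 100 kb called higher from 2 to 6 (main 4). limma voom called 4 family genes higher, and the replicate block called 2 genes within 100 kb higher. Counts called lower within 100 kb and in both directions within 1 Mb stayed within 1.5 times. The alternatives were read for 38 single genes, those of the family, those within 20 kb and those called within 100 kb, and not for ND-75, the markers or the genes most like Est-6. Of the 17 called among these 38, 10, Miox and CAH2 among them, were called in all 16 alternatives, 7 lost the call in at least 1 and 0 reversed direction, while 6 others (Ak1, app, CG10175, CG11529, Nlg4 and Nrt) gained a call in at least 1. The causes were not tested. No pairing by replicate number was seen, since deviations of same-numbered libraries correlated at −0.112 to 0.0264 and 0 of 8 libraries correlated best with its own number. These values cannot show how the pools were prepared. With 4 libraries a group, genes of few reads such as Tsen54 were weakly measured.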
